A study of Mus musculus with 8 samples.

Results

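The region studied was a 5.5 Mb stretch of mouse chromosome 4, from 143 to 148.5 Mb on GRCm38, that holds a cluster of PRAME family genes and a cluster of zinc finger genes. Its members were all loops of the deposited count table with at least 1 anchor in that stretch, 1774 of 415681 loops. Each loop joins 2 anchors of the same chromosome, and its value is the number of read pairs that link them. Both anchors lay inside the region in 1202 loops, and 29 loops joined sites within a single merged anchor. The loops touched 104 of the 30044 anchors of the table, each 5 to 45 kb long. The stretch was chosen with its difference between the 2 genetic backgrounds already known, including long loops seen in only one of them, so every comparison of backgrounds below is a description with no test. The comparisons of the chromosome 13 interval did not enter that choice and were tested.

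The data were H3K27ac HiChIP counts from mouse embryonic stem cells, with 2 technical replicates of each of 4 lines. HiChIP ligates DNA ends that lie near each other in the nucleus and enriches pairs that carry a chromatin mark, here acetylation of lysine 27 on histone H3, which is found at active promoters and enhancers. A count thus depends on both the mark and the contact, and these cannot be told apart here. The line called B6 was B6 5-1, from C57BL/6J mice, and the line called D2 was D2 5-5, from DBA/2J mice. B6-13D2 was congenic line QJ 6-1, B6.D2-(rs30079041-rs51756099)/Bakr, a B6 genome with a D2 segment of chromosome 13. D2-13B6 was the reciprocal line XE 2-4, labelled D2.B6-(rs29224292-rs13469455)/Bakr, a D2 genome with a B6 segment, and the series text names another marker for its second end. All lines were grown with serum, LIF and the inhibitors PD0325901 and CHIR99021. Each genotype was 1 cell line, so an edgeR p-value below measures a difference between these lines against the spread of technical replicates. The permutation tests of the region's share exchange libraries between lines, so their spread also holds differences between lines.

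PRAME family genes encode leucine-rich repeat proteins, and many are known for expression in germ cells, oocytes and the early embryo. The zinc finger genes of this stretch belong to the large vertebrate family whose proteins bind DNA through arrays of zinc fingers. Many members of that family also carry a KRAB domain, which recruits the corepressor TRIM28 and silencing chromatin, often at transposable elements. Both families grow by tandem duplication, so neighbouring genes can carry closely related sequence. RefSeq lists 24 PRAME family genes in the region. GENCODE release M21 lists 83 protein-coding genes, of which 19 have a symbol that starts with Zfp or is Rex2. These are the zinc finger genes below, and genes under other symbols were not counted among them.

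The ends of 2 long loops with higher counts in the D2 background are shown first, as the 250 bases upstream of the annotated start of the gene in each end, 5′ to 3′ on the gene's strand, from RefSeq on GRCm38.p6. The promoter table held 22 of the 24 PRAME family genes and 13 of the 19 zinc finger genes. Pramel14 (chr4:143994370-143994619, minus strand) and Pramel30 (chr4:144329999-144330248, plus strand) lie in the 2 anchors of the loop with the largest measured ratio of D2 over B6 background. Capitals mark their longest shared run, 118 bases long. The highest D2-background counts of these anchors lay in other 5 kb bins than the promoters. The bin of the Pramel14 promoter had 26 counts in the D2 background, against 112 in the highest bin of its anchor. The Pramel30 promoter spans a pair of bins with 11 and 39 counts, against 176 in the highest bin of its anchor.
Pramel14: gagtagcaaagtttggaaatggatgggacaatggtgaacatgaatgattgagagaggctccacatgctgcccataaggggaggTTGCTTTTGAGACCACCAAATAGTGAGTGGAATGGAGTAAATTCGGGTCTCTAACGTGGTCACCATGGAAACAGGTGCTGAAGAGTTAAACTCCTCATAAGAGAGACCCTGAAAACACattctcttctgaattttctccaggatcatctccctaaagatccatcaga
Pramel30: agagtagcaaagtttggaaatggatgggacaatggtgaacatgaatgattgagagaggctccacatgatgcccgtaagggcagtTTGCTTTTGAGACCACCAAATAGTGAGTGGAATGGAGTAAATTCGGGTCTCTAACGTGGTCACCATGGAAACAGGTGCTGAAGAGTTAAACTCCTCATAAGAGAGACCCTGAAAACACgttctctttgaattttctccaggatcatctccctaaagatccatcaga
The pair was 97.2% identical in a global alignment, with 5 mismatches and 2 gap bases. It was the most alike of the 231 pairs among 22 PRAME family promoters, whose median identity was 46.6%. Zfp981 (chr4:146514670-146514919, plus strand) and Zfp985 (chr4:147553027-147553276, plus strand) lie in the anchors of a loop of 1042.5 kb that was also higher in the D2 background. Capitals mark their longest shared runs, 2 stretches of 17 bases each.
Zfp981: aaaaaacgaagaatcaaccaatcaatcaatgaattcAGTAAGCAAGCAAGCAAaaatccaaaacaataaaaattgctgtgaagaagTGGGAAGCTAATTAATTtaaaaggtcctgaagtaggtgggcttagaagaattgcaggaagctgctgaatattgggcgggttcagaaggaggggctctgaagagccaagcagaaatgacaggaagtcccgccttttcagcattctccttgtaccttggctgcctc
Zfp985: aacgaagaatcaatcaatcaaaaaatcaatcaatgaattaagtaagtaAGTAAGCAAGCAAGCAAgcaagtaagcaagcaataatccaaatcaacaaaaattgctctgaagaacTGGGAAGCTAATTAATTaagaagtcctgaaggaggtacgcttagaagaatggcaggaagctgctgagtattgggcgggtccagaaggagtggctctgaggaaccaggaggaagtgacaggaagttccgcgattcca
That pair was 67.7% identical, against a median of 65.2% over the 78 pairs of zinc finger promoters. For scale, the 190 pairs among 20 other named genes of the region had a median identity of 44.2%. The bin of the Zfp981 promoter had 276 counts in the D2 background and 429 in the B6 background. That of the Zfp985 promoter had 199 and 144. The promoters of Dhrs3 (chr4:144892577-144892826, plus strand) and Pdpn (chr4:143299565-143299814, minus strand) are shown because the first carried the firmest difference with the interval and the second one of the strongest signals of the B6 background. Capitals mark CG dinucleotides.
Dhrs3: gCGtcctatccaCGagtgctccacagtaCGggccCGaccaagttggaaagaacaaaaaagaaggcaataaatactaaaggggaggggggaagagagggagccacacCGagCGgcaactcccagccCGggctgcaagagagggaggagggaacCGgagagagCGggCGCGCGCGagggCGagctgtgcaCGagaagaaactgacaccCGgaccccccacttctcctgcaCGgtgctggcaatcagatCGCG
Pdpn: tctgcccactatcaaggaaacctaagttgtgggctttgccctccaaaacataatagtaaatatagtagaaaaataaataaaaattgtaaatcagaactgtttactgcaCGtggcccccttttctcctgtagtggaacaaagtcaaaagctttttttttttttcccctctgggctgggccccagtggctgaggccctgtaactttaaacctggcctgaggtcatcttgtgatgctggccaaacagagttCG
Dhrs3 had 19 CG dinucleotides in these 250 bases and Pdpn 2, against a median of 6 over the 27025 genes of the promoter table. The median was 1 over the PRAME family promoters and 2 over the zinc finger promoters.

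Library totals ran from 737955 to 1425304 counts, and the region held 0.322% to 0.402% of each library. Loop counts were sparse, with 679 of the 1774 loops seen as a single count over all 8 libraries. The 169 loops that reached 5 counts in 2 or more libraries held 81.0% of the region's counts, and 74 of the 104 anchors reached 10 counts in 2 or more libraries. The tests and the counts of non-overlapping features used only these. An anchor's value was the sum of all loops that touch it. Anchors at the starts of all 8 embryonic stem cell markers checked summed to 3253 to 4622 CPM, that is, counts scaled to a common library size with TMM factors, while the table held no anchor at the start of any listed primitive endoderm, mesoderm or neural gene. Of the other lists, 2 of 4 fibroblast genes had anchors, with summed values of 61.8 to 81.6 CPM in the D2 background and 47.3 to 75.4 CPM in the B6 background. In the trophoblast list 1 of 3 genes did, with 7.87 to 10.4 and 8.53 to 14.6 CPM. In D2-13B6, chromosome 11 took 13.9% and 14% of the library, against 10.0% to 10.6% in the other lines.

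Between backgrounds, the direction of the difference changed along the region. Of the 74 tested anchors, 17 were higher in all 4 D2-background libraries than in all 4 of the B6 background, where 8.12% of all tested anchors of the genome were, and 17 were lower, where 9.59% were. Of the 169 tested loops, 22 were higher throughout the D2 background and 21 lower, against 5.15% and 5.65% of all tested loops. Since the stretch was chosen on this contrast, nothing is read from these shares. The 8.12% and 9.59% also stand beside the anchor counts by segment and by gene class below. Nothing is read from those counts either. The share of the library held by the region was 0.368% ± 0.016 (SD, n = 4 libraries) in the D2 background and 0.364% ± 0.039 in the B6 background, and these values overlapped.

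The 2 gene clusters differed in direction. For loops with both ends in the PRAME family cluster, the D2-background libraries had 156 to 203 CPM of the library total and the B6-background libraries 66.3 to 122, a ratio of means of 1.80. That ratio rested on 3 loops described below, from Pramel14 and its neighbour to Pramel30 and from Pramel21 to Pramel11. Without them the values were 71.6 to 114 CPM in the D2 background and 66.3 to 121 CPM in the B6 background, which overlap, with a ratio of 1.02. In the gene-rich stretch that follows it, from the Aadacl genes to Platr16, the ratio was 1.38. In the zinc finger cluster the order was reversed, with 372 to 501 in the D2 background and 555 to 748 in the B6 background, a ratio of 0.683. The flank from Prdm2 to Lrrc38 had a ratio of 0.567 and the flank from Miip to Mtor one of 0.854. In all 5 segments the 4 libraries of one background lay above the 4 of the other.

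**Figure D1:**
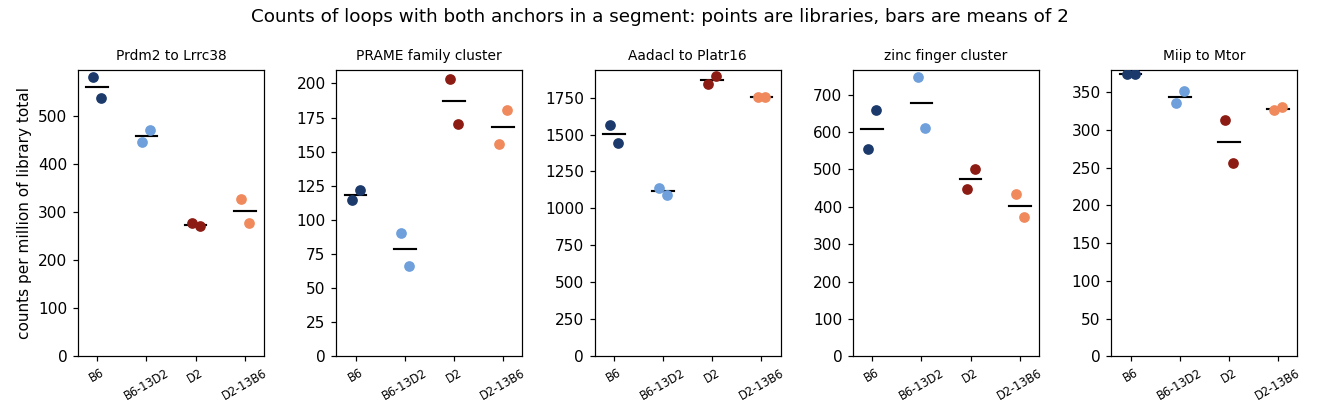
CPM without TMM factors, that is, counts over the library total (y axis, from 0) of loops with both anchors in each of 5 segments of the region, by line (x axis). Points are libraries and bars are means of 2. The D2 and D2-13B6 libraries sit above the B6 and B6-13D2 libraries in the PRAME family cluster (156 to 203 against 66.3 to 122) and below them in the zinc finger cluster (372 to 501 against 555 to 748).

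**Figure D2:**
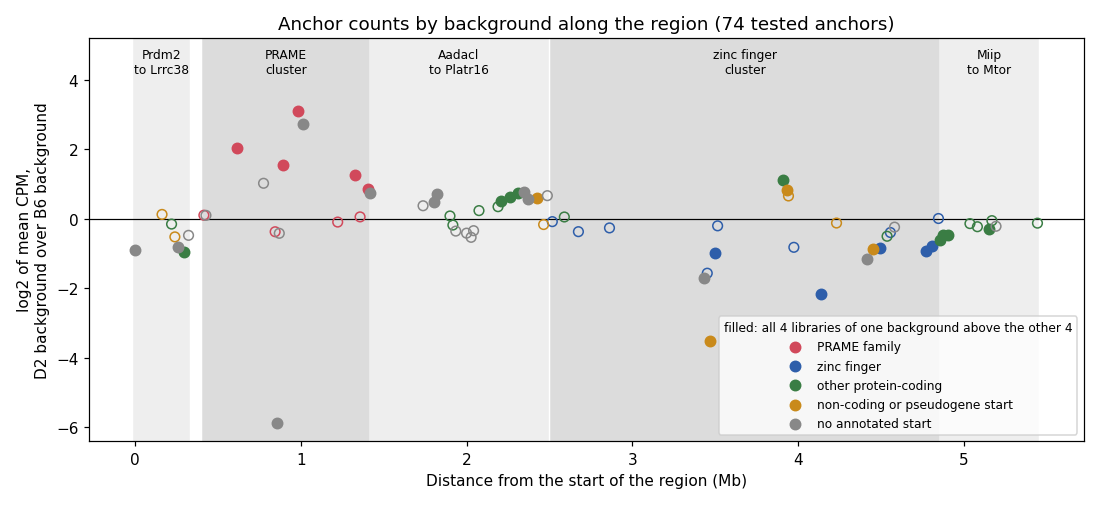
Log2 ratio of mean CPM in the D2 background over the B6 background (y axis) for the 74 tested anchors, by distance from the start of the region (x axis, Mb), coloured by the gene starts within 5 kb. Filled points are the 34 anchors at which all 4 libraries of one background exceed all 4 of the other, with 6 of 14 tested anchors higher in the PRAME family cluster and 9 of 24 lower in the zinc finger cluster.

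In the PRAME family cluster, 6 of 14 tested anchors were higher in the D2 background and 1 was lower. Of the 9 tested anchors with a PRAME family start within 5 kb, 5 were higher and 0 lower. These 5 include both ends of the loop from Pramel14 to Pramel30 and both ends of that from Pramel21 to Pramel11. They are thus not independent of each other. The strongest of the 5 was the 30 kb anchor over Pramel14 and Pramel28 (143970001 to 144000000). Its counts were 2 and 6 for B6, 7 and 5 for B6-13D2, 45 and 36 for D2 and 46 and 62 for D2-13B6. The mean was 44.2 ± 6.95 CPM in the D2 background and 5.22 ± 2.70 CPM in the B6 background (SD, n = 4), with no overlap. The neighbouring anchor without an annotated start (144005001 to 144020000) had 29.8 ± 4.29 and 4.50 ± 4.08 CPM. Of its 127 D2-background counts, 113 were in its loop to Pramel30, and without that loop it had 14 counts in each background. The anchor over Pramel30 (144305001 to 144345000) had 91.0 to 128 CPM in the D2 background and 31.8 to 62.3 CPM in the B6 background. Of its 488 D2-background counts, 161 were in its loop to the Pramel14 and Pramel28 anchor and 113 in that to the neighbouring anchor. In the B6 background these loops held 2 and 2 of its 182 counts, so its difference is not separate from theirs. Pramel21 had 5.97 to 24.0 CPM in the D2 background and 2.09 to 5.16 CPM in the B6 background. Of the 60 D2-background counts of Pramel21, 52 were in its loop to Pramel11, which had 0 of its 15 in the B6 background, so without that loop it had 8 counts against 15. Pramel11 had 17.2 to 37.8 and 6.26 to 15.3 CPM, and without the same loop 66 counts against 38. The anchor over Pramel13 had 76.5 to 106 and 35.7 to 66.2 CPM.

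A pair of neighbouring loops to Pramel30 had the largest measured ratios of D2 over B6 background in this cluster. The loop of 340 kb from the Pramel14 and Pramel28 anchor to the Pramel30 anchor had 0 and 0 counts in B6, 2 and 0 in B6-13D2, 39 and 32 in D2 and 37 and 53 in D2-13B6. The rate was 74.5 times higher in the D2 background, with an exact 95% interval of 20.3 to 621 that covers counting error only. This loop held 161 of the 189 D2-background counts of the Pramel14 and Pramel28 anchor, or 85.2%. Without it that anchor kept 28 counts in the D2 background and 18 in the B6 background. A parallel loop of 312.5 kb from the neighbouring anchor to Pramel30 had 1 and 1 counts in B6, 0 and 0 in B6-13D2, 22 and 26 in D2 and 34 and 31 in D2-13B6, a ratio of 52.3 (14.1 to 437). These 2 loops share an anchor and are not independent of each other. The ends of the 340 kb loop carry the near-identical promoters printed above, and 10.4% of the 150-base windows of the smaller anchor of the 340 kb loop occur exactly in the other anchor. How read pairs with more than one possible origin were placed is not given in the sources used here.

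One short stretch of the PRAME family cluster went the other way. The 5 kb anchor between Pramel27 and Pramel11 (143855001 to 143860000, no annotated start) had 19 and 16 counts in B6, 17 and 22 in B6-13D2, 0 and 1 in D2 and 0 and 0 in D2-13B6. Its rate was 80.6 times higher in the B6 background (exact 95% interval 14 to 3226, which covers counting error only). Its loop of 12.5 kb to Pramel27 had 8.36 ± 1.25 CPM in the B6 background and 0.33 ± 0.65 CPM in the D2 background. Its loop of 12.5 kb to the next anchor was seen in the B6 background alone, with 8, 5, 4 and 5 counts, a rate at least 7.92 times higher. Here and below, "at least" sets the side without counts at 3 counts over its 4 libraries. The anchor at Pramel27 itself had 7.48 to 21.4 CPM in the D2 background and 14.6 to 21.6 CPM in the B6 background, which overlap. In this anchor 1.54% of 150-base windows recur on the reference.

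**Figure D3:**
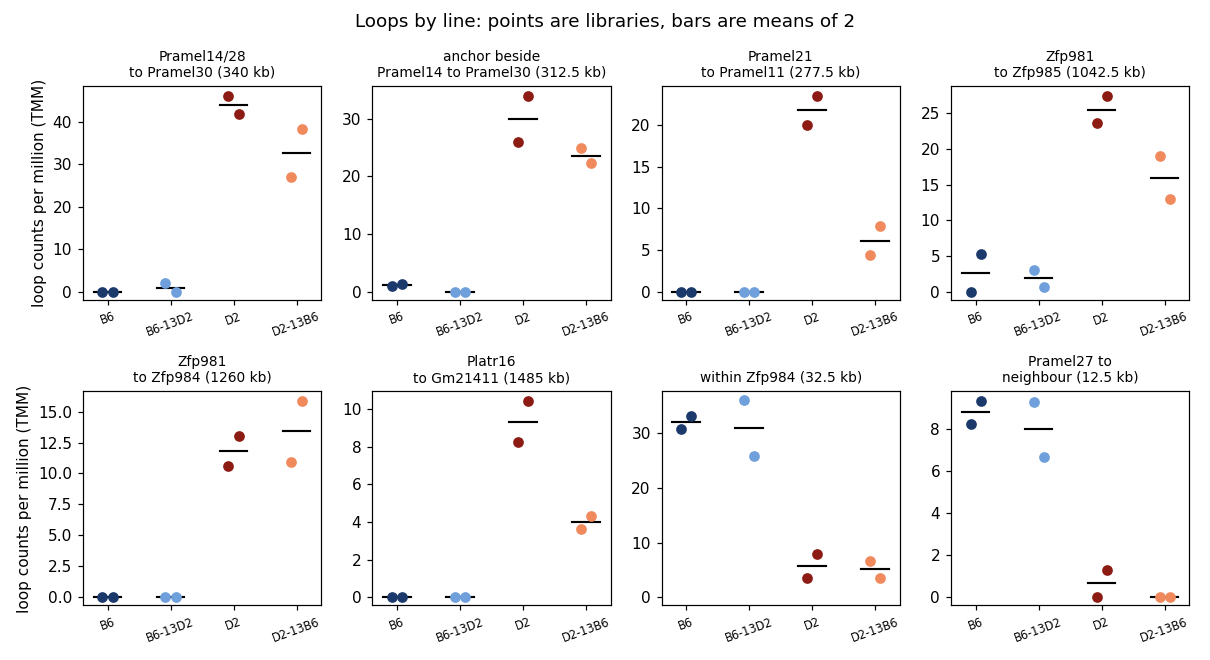
CPM with TMM factors (y axes, each panel on its own scale) of 8 loops, by line (x axis). Points are libraries, bars are means of 2, and the span is the distance between anchor midpoints. The first 6 loops are at or near 0 in both lines of the B6 background, and the last 2 show the opposite pattern.

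In the flank from Prdm2 to Lrrc38, 3 of 7 tested anchors were lower in the D2 background and 0 higher. The strongest signal was at Pdpn, which encodes podoplanin, a membrane glycoprotein. The Pdpn anchor (143270001 to 143315000) had 508 and 445 CPM in B6, 376 and 398 in B6-13D2, 222 and 193 in D2 and 254 and 225 in D2-13B6. The mean was 432 ± 58.5 CPM in the B6 background and 223 ± 25.1 CPM in the D2 background, with no overlap. Contacts inside that anchor had the same order, with 204 ± 51.4 and 78.9 ± 17.1 CPM. The loop from Pdpn to the Eef2-ps2 pseudogene 52.5 kb away had 53.7 ± 2.68 and 25.0 ± 10.6 CPM. The other separated anchors have no annotated start within 5 kb. That at 143255001 to 143260000 had 69.7 ± 5.95 CPM in the B6 background and 39.1 ± 6.92 CPM in the D2 background, and that at 142995001 to 143005000 had 28.6 ± 6.87 and 15.3 ± 3.05 CPM. The anchor at Prdm2, which encodes a zinc finger histone methyltransferase, had 166 ± 13.2 and 148 ± 1.92 CPM and its backgrounds overlapped.

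From the Aadacl genes to Platr16, 9 of 20 tested anchors were higher in the D2 background and 0 lower, and 4 of the 6 loops with the highest mean CPM lay here. Tnfrsf1b and Tnfrsf8 encode receptors of the tumour necrosis factor family, and Platr16 is a non-coding transcript. The Tnfrsf1b anchor had 585 ± 61.8 CPM in the D2 background and 380 ± 69.1 CPM in the B6 background. The Tnfrsf8 anchor had 527 ± 41.2 and 314 ± 49.8 CPM, and the Platr16 anchor 559 ± 73.0 and 375 ± 47.2 CPM. The 4 libraries of the backgrounds did not overlap at any of the 3. Loops between these anchors also had higher counts in the D2 background, as the anchors themselves did. The loop of 115 kb from Tnfrsf8 to Platr16 had 29 and 17 counts in B6, 22 and 27 in B6-13D2, 58 and 39 in D2 and 94 and 87 in D2-13B6, a ratio of rates of 2.71. The loop from Tnfrsf1b to Platr16 had a ratio of 2.25, that from Tnfrsf1b to Tnfrsf8 one of 1.84 and that from Vps13d to Platr16 one of 2.19. Repeated sequence was scarce in this block, with 0.07% of windows at Tnfrsf1b, 0.79% at Tnfrsf8 and 0.35% at Platr16.

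In the zinc finger cluster, 9 of 24 tested anchors were lower in the D2 background and 2 higher. Of the 13 tested anchors at a zinc finger start, as set by gene symbol, 5 were lower and 0 higher. The brightest was the 45 kb anchor over Zfp984 (147785001 to 147830000), with 303 and 267 CPM in B6, 309 and 292 in B6-13D2, 147 and 176 in D2 and 185 and 163 in D2-13B6. The mean was 293 ± 18.4 CPM in the B6 background and 168 ± 16.4 CPM in the D2 background. The second Zfp984 anchor, inside the gene (147770001 to 147780000), had 46.3 ± 7.52 and 24.4 ± 2.80 CPM. The loop of 32.5 kb between them had 30, 25, 35 and 35 counts in the B6-background libraries and 3, 6, 9 and 5 in those of the D2 background, a ratio of rates of 5.87. Zfp991 had 30.2 ± 6.96 and 6.72 ± 1.71 CPM. Zfp982 had 17.2 ± 2.57 and 9.65 ± 2.91 CPM. The anchor at Gm13241 and Gm13245 (146460001 to 146480000) had 12.1 ± 2.78 CPM in the B6 background and 1.06 ± 0.94 CPM in the D2 background.

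The 2 anchors of Zfp981 did not show the same pattern. The anchor 146495001 to 146505000 had 90.9 to 201 CPM in the B6 background and 68.6 to 80.7 CPM in the D2 background. The anchor 146510001 to 146520000, which holds the promoter, had 87.8 to 189 and 120 to 136 CPM, which overlap. The loop of 15 kb between them had 57.1 ± 4.86 CPM in the D2 background and 124 ± 37.1 CPM in the B6 background. The loop from the promoter anchor to Zfp985, 1042.5 kb away, went the other way, with 0 and 4 counts in B6, 3 and 1 in B6-13D2, 20 and 21 in D2 and 26 and 18 in D2-13B6. Its rate was 9.84 times higher in the D2 background. The loop of 717.5 kb to Gm13147 was 3.39 times higher. The 2 anchors of the cluster that were higher in the D2 background were Gm21411, with 71.2 ± 19.3 CPM in the D2 background and 32.9 ± 6.21 CPM in the B6 background, and Gm20760 beside it, with 35.1 ± 5.18 and 20.01 ± 2.38 CPM. Zfp933 had 55.4 to 69.3 and 55.8 to 66.7 CPM, which overlap.

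Long loops seen only in the D2 background joined sites within and around both gene clusters. Of 206 loops that spanned at least 100 kb and held at least 10 counts, 6 had all their counts in the D2 background and 0 had all of them in the B6 background, where 0.101% and 0.0534% of such loops of the whole table did. Without D2 replicate 2 the second count was 1, and without D2-13B6 replicate 1 it was 2. The loop of 1260 kb from the Zfp981 promoter anchor to the intragenic Zfp984 anchor had 9 and 10 counts in D2 and 15 and 22 in D2-13B6, a rate at least 17.3 times that of the B6 background. The loop of 277.5 kb from Pramel21 to Pramel11 had 17, 18, 6 and 11 counts in the same libraries, at least 16.05 times. The loop of 1485 kb from Platr16 to Gm21411 had 7, 8, 5 and 6 counts, at least 8.02 times. A further loop to Gm21411, from an anchor without an annotated start 1420 kb away (145485001 to 145490000), had 3, 3, 7 and 6 counts. The loop of 1600 kb from Zfp987 to Zfp534 had 4, 2, 3 and 5 counts. The loop of 585 kb from Gm21411 to Zfp982 had 1, 5, 2 and 2 counts.

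These loops differed in how much sequence their ends share. In the Zfp987 to Zfp534 pair, 41.9% of the windows of the smaller anchor occur exactly in the other, and in the Pramel21 to Pramel11 pair 4.98% do. In the Zfp981 to Zfp984 pair and in both named loops of 1420 and 1485 kb to Gm21411 the share was 0%. With a minimum of 5 counts there were 18 loops of the D2 background alone and 8 of the B6 background alone. Gm21411 was an end of 6 of the 18 and the unnamed anchor at 145485001 of 4. After the 6 loops above, 3 held 8 counts each, from Zfp980 to Gm21411 over 1232.5 kb, from the unnamed anchor to the Zfp981 promoter anchor over 1027.5 kb, and from the unnamed anchor to Gm13140 and Gm13149 over 1455 kb. Of the 8 loops of the B6 background alone, 2 held 7 counts each, from Tnfrsf1b to an anchor at Smarca5-ps and from an anchor inside Zfp985 to Zfp984. The other 6 held 5 counts each, among them those from Gm21411 to Zfp991 over 232.5 kb and from Gm13241 and Gm13245 to an unnamed anchor 947.5 kb away.

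The flank from Miip to Mtor lies past the zinc finger cluster. Of its 9 tested anchors, 4 were lower in the D2 background and 0 higher, with small ratios. The anchor over Miip, the retroviral restriction gene Fv1 and the mitochondrial fusion gene Mfn2 had 194 ± 14.6 CPM in the B6 background and 140 ± 11.2 CPM in the D2 background. The anchor at the mitotic checkpoint gene Mad2l2 and its F-box neighbours had 139 ± 5.75 and 111 ± 8.76 CPM. The first anchor past the end of the region, at Exosc10, had 22.5 to 37.2 and 19.5 to 24.6 CPM. At the other boundary, the last anchor outside had 4.17 to 11.6 CPM in the B6 background and 1.26 to 7.87 CPM in the D2 background, and the first inside 21.9 to 38.2 and 12.6 to 18 CPM.

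Repeated sequence at the length of 1 read was measured in each anchor. In 43 of its 104 anchors, or 41.3%, over 10% of the 150-base windows occur again exactly on the GRCm38 chromosomes, against 15.7% of the 1803 other anchors of chromosome 4. The median share was 31.1% over the 48 anchors of the zinc finger cluster. Of the 30 anchors with too few counts to test, 24 lay in that cluster, and their median share was 51.2% against 0.95% in tested anchors. Of the 57 tested anchors at or under 10%, 12 were higher and 13 lower throughout the D2 background, and of the 17 above it 5 were higher and 4 lower. Nothing is read from these counts, since the region was chosen on that contrast. GRCm38 is a C57BL/6J sequence, and the part that mapping of D2 reads to it has in these values was not tested.

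**Figure D4:**
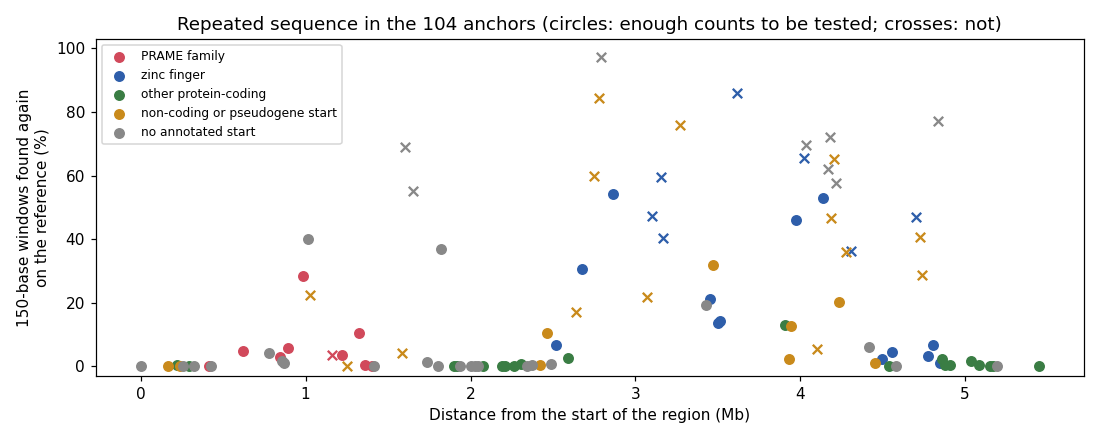
Percent of the 150-base windows of each of the 104 anchors that occur again exactly on the GRCm38 chromosomes (y axis), by distance from the start of the region (x axis, Mb). Circles are the 74 tested anchors and crosses the 30 with too few counts, 24 of which lie in the zinc finger cluster, and colours give the gene starts within 5 kb.

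The allele of the chromosome 13 interval was tested next, with edgeR's quasi-likelihood test and Benjamini-Hochberg adjustment over all loops or anchors of the genome at 0.05. In the B6 background, 10 of the 74 tested anchors of the region were called between B6-13D2 and B6, where 5.22% of all tested anchors were. Of these 8 were lower with the D2 allele, where 1.81% of all anchors were, and 2 higher, where 3.41% were. In the D2 background, 2 were called between D2 and D2-13B6, where 5.84% of all anchors were, 1 higher (1.47% of all anchors) and 1 lower (4.37%). Averaged over both backgrounds 7 were called, where 6.25% of all anchors were, 6 lower with the D2 allele (3.35% of all anchors) and 1 higher (2.9%). Both comparisons within a background share their libraries with the average.

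Dhrs3 and the neighbouring Vps13d held 6 of the 10 calls of the B6 background. Dhrs3 encodes a retinaldehyde reductase that limits retinoic acid formation, and Vps13d a lipid transfer protein. The Dhrs3 promoter anchor (144890001 to 144910000) had 155 and 164 CPM in B6, 68.9 and 96.1 in B6-13D2, 110 and 115 in D2 and 134 and 150 in D2-13B6. Both libraries with the D2 allele lay below both with the B6 allele in each background. The log2 fold change with the D2 allele was -0.92 ± 0.16 (SE) in the B6 background (edgeR adjusted p = 4.11e-05), -0.34 ± 0.15 in the D2 background (edgeR adjusted p = 0.213) and -0.63 ± 0.11 on average (edgeR adjusted p = 3.61e-05). The interaction, the effect in the D2 background minus that in the B6 background, was 0.58 ± 0.22 (edgeR adjusted p = 0.126). Contacts inside the Dhrs3 promoter anchor fell in B6-13D2 too, by 1.49 ± 0.38 on the log2 scale (edgeR adjusted p = 0.0206). The promoter anchor passed the threshold in both the B6-background and the average comparison under all 15 alternative fits, while the call of the loop inside it was lost without B6 replicate 1, B6 replicate 2 or B6-13D2 replicate 1.

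Of the 7 tested anchors from Dhrs3 to 145080000, 6 were called lower in B6-13D2 than in B6. The anchor within Dhrs3 (144915001 to 144920000) fell from 63.0 and 58.5 CPM to 34.4 and 28.7 CPM, a log2 fold change of -0.96 ± 0.23. The 4 called anchors inside Vps13d (144990001 to 145010000, 145025001 to 145030000, 145040001 to 145045000 and 145070001 to 145080000) had log2 fold changes of -0.59 ± 0.14, -1.01 ± 0.27, -1.16 ± 0.27 and -0.91 ± 0.26, with edgeR adjusted p-values from 0.0034 to 0.018. The seventh anchor (144930001 to 144940000) had a log2 fold change of -0.52 ± 0.19 that missed the threshold (edgeR adjusted p = 0.103). None of the 7 passed it between D2 and D2-13B6, where their log2 fold changes ran from -0.34 to 0.23. Neighbouring anchors share loops and are not independent of each other. Without B6 replicate 1 the call of Dhrs3 was the only one of the 10 that remained, and the other 9 had edgeR adjusted p-values of 0.0595 to 0.479. Without B6-13D2 replicate 2, 5 of the 10 passed, and Dhrs3 and the anchor at 144990001 were those of this block. The call at 145070001 was also lost without B6 replicate 2 (edgeR adjusted p = 0.055).

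**Figure D5:**
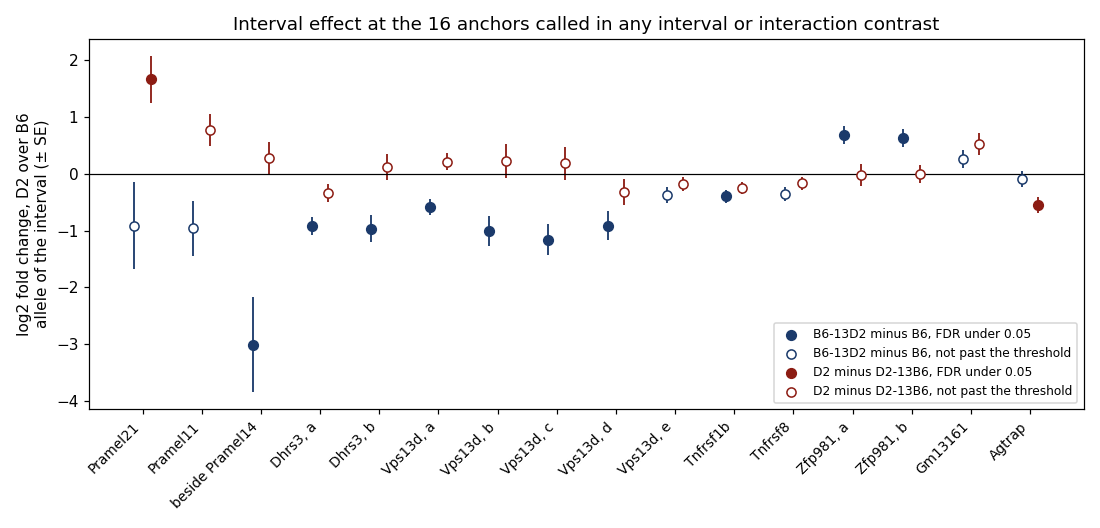
Log2 fold change of anchor counts, D2 over B6 allele of the chromosome 13 interval, with its standard error (y axis), at the 16 anchors called in any interval or interaction contrast (x axis, in genomic order), separately for the B6 and the D2 background. Filled points have an edgeR adjusted p under 0.05. The 6 anchors from Dhrs3 to the fourth within Vps13d are filled and below 0 in the B6 background and open in the D2 background.

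Farther along the same gene-rich stretch, both tumour necrosis factor receptor genes and the promoter anchor of Vps13d were lower with the D2 allele on average. Tnfrsf1b had 468 and 396 CPM in B6, 307 and 348 in B6-13D2, 552 and 516 in D2 and 621 and 650 in D2-13B6. Its average log2 fold change was -0.32 ± 0.08 (edgeR adjusted p = 0.0059), and both libraries with the D2 allele were below both with the B6 allele in each background. Tnfrsf8 changed by -0.27 ± 0.08 (edgeR adjusted p = 0.035) and the anchor at Vps13d (145200001 to 145220000) by -0.28 ± 0.09 (edgeR adjusted p = 0.041). Each of these calls was lost without B6 replicate 1, D2 replicate 2 or B6-13D2 replicate 1, where the edgeR adjusted p-values were 0.0525 to 0.276. That of Tnfrsf8 was lost without any 1 library other than B6 replicate 2, and that of Vps13d without any other than B6 replicate 2 or B6-13D2 replicate 2. The remaining average calls were Dhrs3, the Vps13d anchor at 145070001 (-0.62 ± 0.17, edgeR adjusted p = 0.016), Agtrap (-0.32 ± 0.10, edgeR adjusted p = 0.029) and, higher with the D2 allele, Gm13161 (0.39 ± 0.12, edgeR adjusted p = 0.043). Those of Agtrap and Gm13161 were lost without B6 replicate 1, D2 replicate 2, B6-13D2 replicate 1 or either D2-13B6 replicate, with edgeR adjusted p-values of 0.0638 to 0.347. That at 145070001 was lost without D2 replicate 1, B6-13D2 replicate 2 or D2-13B6 replicate 1, with edgeR adjusted p-values of 0.0622 to 0.113. Over the tested anchors of the region, the average calls numbered 2 without D2 replicate 2, 3 without B6 replicate 1, B6-13D2 replicate 1 or either D2-13B6 replicate, and 4 without D2 replicate 1. Within the B6 background, Tnfrsf1b fell by 0.40 ± 0.12 on the log2 scale (edgeR adjusted p = 0.029), a call also lost without B6 replicate 1 or B6-13D2 replicate 1. The difference between backgrounds at Tnfrsf1b and Tnfrsf8 thus ran opposite to the effect of the D2 allele of the interval at these anchors.

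Both anchors called higher in B6-13D2 than in B6 lay at Zfp981. Its anchor at 146495001 had 90.9 and 141 CPM in B6 and 201 and 167 CPM in B6-13D2, a log2 fold change of 0.68 ± 0.16 (edgeR adjusted p = 0.0029). The promoter anchor changed by 0.63 ± 0.16 (edgeR adjusted p = 0.0066), and the loop of 15 kb between them by 0.63 ± 0.17 (edgeR adjusted p = 0.033). The B6 replicates were far apart at both anchors. Without B6 replicate 1 the edgeR adjusted p-values of the anchors were 0.292 and 0.479, and without B6-13D2 replicate 1 they were 0.0534 and 0.0587. The call of the loop was lost without either of these libraries or without either D2-13B6 replicate. Between D2 and D2-13B6 the 2 anchors had log2 fold changes of -0.02 ± 0.19 and -0.01 ± 0.16. The interaction was -0.70 ± 0.25 and -0.63 ± 0.22 (edgeR adjusted p = 0.084 and 0.085).

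In the D2 background the calls were at Pramel21 and Agtrap. Pramel21 had 23.6 and 24.0 CPM in D2 and 5.97 and 8.98 CPM in D2-13B6, a log2 fold change of 1.65 ± 0.42 (edgeR adjusted p = 0.0056). Its loop to Pramel11, one of the loops of the D2 background alone, had 20.1 and 23.5 CPM in D2 and 4.38 and 7.92 CPM in D2-13B6, a log2 fold change of 1.80 ± 0.43 (edgeR adjusted p = 0.0054). The call of the anchor and that of the loop rest on largely the same reads, and outside this loop Pramel21 had 4 and 1 counts in D2 and 2 and 1 in D2-13B6. This loop was thus seen in both lines of the D2 background and had higher values in D2 than in D2-13B6, each of them 1 cell line. Agtrap, which encodes a protein that binds the angiotensin receptor, had 152 and 127 CPM in D2 and 199 and 212 CPM in D2-13B6, a log2 fold change of -0.55 ± 0.14 (edgeR adjusted p = 0.0061). Contacts inside the Agtrap anchor changed by -1.03 ± 0.26 (edgeR adjusted p = 0.014). Contacts inside the Platr16 anchor had 262 and 353 CPM in D2 and 209 and 204 CPM in D2-13B6, a change of 0.57 ± 0.13 (edgeR adjusted p = 0.0046). All of these calls were lost without D2 replicate 2, with edgeR adjusted p-values of 0.0764 to 0.567. Those of Pramel21 and of its loop were also lost without D2 replicate 1 or D2-13B6 replicate 1. The call of the Agtrap anchor was also lost without D2-13B6 replicate 2, that of its inner loop without any of the 4 D2-background libraries, and that of Platr16 without either D2-13B6 replicate.

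Over single loops the effect of the interval was seldom called. Averaged over backgrounds, 0 of the 169 tested loops passed in edgeR, where 0.989% of all tested loops did, and 25 had an unadjusted p under 0.05. In the B6 background 4 passed, where 0.879% of all loops did. Beside the Dhrs3 and Zfp981 loops named above they were the contacts inside the Tnfrsf8 anchor, with a change of -0.71 ± 0.20 (edgeR adjusted p = 0.047), and inside the Pdpn anchor, with -0.50 ± 0.14 (edgeR adjusted p = 0.048). These 4 calls were all lost without B6 replicate 1 or B6-13D2 replicate 1, with edgeR adjusted p-values of 0.266 to 0.781. That of Tnfrsf8 was lost without any 1 of the 8 libraries and that of Pdpn without any other than B6 replicate 2. In the D2 background 3 passed, where 0.91% of all loops did.

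Whether the interval acted differently in the 2 backgrounds was tested directly. Of the 74 anchors, 5 passed in edgeR, where 4.79% of all tested anchors did, and all 5 were positive, where 1.06% of all anchors were and 3.73% were negative. They were 2 of the anchors inside Vps13d, with 0.79 ± 0.21 (edgeR adjusted p = 0.00995) and 1.34 ± 0.40 (edgeR adjusted p = 0.031), and the anchor within Dhrs3, with 1.08 ± 0.33 (edgeR adjusted p = 0.037). The remaining ones lay in the PRAME family cluster. Pramel11 had 1.73 ± 0.55 (edgeR adjusted p = 0.049). Outside its loop to Pramel21 it had 14 and 12 counts in D2 and 28 and 12 in D2-13B6, and inside it 17 and 18 against 6 and 11. The anchor beside Pramel14 (144005001 to 144020000) had 3.28 ± 0.89 (edgeR adjusted p = 0.014), with 8 and 6 counts in B6 against 2 and 0 in B6-13D2. No B6-background library reached 10 counts there, so the anchor was tested only through its D2-background counts, 113 of 127 of which were in its loop to Pramel30. Of the 16 B6-background counts 14 lay outside that loop, so the compared effects come largely from different contacts, and nothing is drawn from this value. The count of 5 includes this anchor. Without D2 replicate 1 or without D2-13B6 replicate 2 none of the 5 passed. Over all tested anchors of the region there was 1 call without B6 replicate 1, 2 without D2 replicate 2, 3 without B6-13D2 replicate 2 or D2-13B6 replicate 1, and 8 without B6 replicate 2. Of the 169 loops 0 passed the edgeR test of the interaction, where 0.602% of all loops did, 22 had an unadjusted p under 0.05, and DESeq2 called 0.

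The share of the library held by the region went in opposite directions with the interval in the 2 backgrounds. It was 0.392% and 0.402% in B6 against 0.340% and 0.322% in B6-13D2, a difference of -0.0657 points with the D2 allele. The D2 libraries held 0.378% and 0.384% and the D2-13B6 libraries 0.357% and 0.350%, a difference of 0.0277 points. The lines did not overlap within either background. With chromosome 11 left out of the library totals, a choice made after the values were seen, the D2 libraries held 0.422% and 0.429%, the D2-13B6 libraries held 0.415% and 0.407%, and the difference was 0.0143 points, while the difference in the B6 background was -0.0738 points. The effect in the D2 background minus that in the B6 background was 0.0934 points with chromosome 11 kept and 0.0881 points without it, given with no test. With both backgrounds pooled, where the effects offset each other, and with chromosome 11 kept, the region held 0.356% ± 0.030 (SD, n = 4 libraries) of the counts with the D2 allele and 0.375% ± 0.025 with the B6 allele (exact two-sided permutation test, p = 0.371, the smallest possible being 0.0286). With labels permuted within each background the exact two-sided permutation p was 0.389. Related genes elsewhere were counted for comparison. Of 323 tested anchors at other genes with a symbol that starts with Zfp, 33 (10.2%) were higher throughout the D2 background and 26 (8.05%) lower, near the 8.12% and 9.59% of all tested anchors. On average over backgrounds, 7 of the 323 were called higher and 16 lower with the D2 allele of the interval, against 2.9% and 3.35% of all tested anchors. A single tested anchor lay at a Pramel gene outside the region.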

How the data were processed

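H3K27ac HiChIP was made with 150-base paired reads, per the labels. The authors deposited 1 table of raw counts per loop and library. Build mm10 (GRCm38), BWA 0.7.18, SAMtools 1.19.2 and edgeR 3.34.1 are named in the submitters' processing notes, and the loop caller and the placement of multi-mapping reads are not given in the sources used here. The region, its members and the gene lists were chosen with earlier results of these data known.

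From the counts, anchor sums were computed, a loop inside 1 anchor counting once. Loops with at least 5 counts, or anchors with at least 10, in at least 2 libraries were tested over the whole genome with edgeR 4.0.16 (R 4.3.3), TMM factors, 1 mean per line and no block. CPM uses TMM. Contrasts were B6-13D2 minus B6, D2 minus D2-13B6, their average and their difference. The code was tested on simulated data. Repeated sequence is the percent of 150-base windows found again exactly, on either strand. Promoters were aligned with Biopython 1.88. Gene starts within 5 kb come from GENCODE M21, with RefSeq names. Alternatives were DESeq2 1.42.0, other normalizations, filters and thresholds, each library left out, chromosome 11 left out and the replicate block.

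Named items were the loops seen in 1 background alone with the most counts (8 and 4), the 6 loops and 8 anchors of highest mean CPM, the 8 separated loops and anchors of largest change in each direction, all calls of the interval and interaction (at most 10 per contrast), anchors at PRAME family and zinc finger starts as groups, and landmark genes. A few further items named beside them, such as Gm20760, the Eef2-ps2 loop and the third loop of 8 counts, were chosen after their values were seen. Results for some items are not reported here.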

Additional observations from a re-analysis of the deposited data

Results flagged for a closer look

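At 5 anchors the effect of the interval in the D2 background exceeded that in the B6 background in edgeR's test of the difference itself. The log2 differences were 0.79 and 1.34 inside Vps13d (edgeR adjusted p = 0.00995 and 0.031), 1.08 within Dhrs3 (0.037), 1.73 at Pramel11 (0.049) and 3.28 beside Pramel14 (0.014). Without D2 replicate 1 or without D2-13B6 replicate 2 none of the 5 passed. The anchor beside Pramel14 was tested only through its D2-background counts, since no B6-background library reached 10 counts there, and nothing is drawn from its value. Outside its loop to Pramel21, Pramel11 had 14 and 12 counts in D2 and 28 and 12 in D2-13B6, and inside it 17 and 18 against 6 and 11.

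Dixon's criterion for a sample far from the other 3 of its background marked 4 of 114 groups checked, where chance marks about 1 in 20. D2 replicate 2 had 1.26 CPM at the anchor between Pramel27 and Pramel11 and 1.30 CPM in its loop to Pramel27, each resting on 1 count, where the other 3 libraries of the D2 background had 0. B6-13D2 replicate 1 had 2.06 CPM in the loop from Pramel14 and Pramel28 to Pramel30, or 2 counts, where the other 3 libraries of the B6 background had 0. D2 replicate 2 had 42.9 CPM at Gm20760, against 32.1 to 32.9 in the others.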

How the results depend on the processing

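No called value changed sign, while the background difference in the region's share, which has no test, did with 1 library left out. A threshold of 0.01 left 2 anchors called for the average, 0 loops and 6 anchors in the B6 background and 1 anchor for the interaction. DESeq2 called 2 anchors for the average, 0 loops and 3 anchors in the B6 background, 1 loop and 1 anchor in the D2 background and 1 anchor for the interaction. Scaling by library totals gave 4 anchors in the D2 background and 9 for the interaction. Testing all loops with 1 count in 2 libraries left 0 loops in either background. The stricter count filter gave 3 loops for the average, 2 loops for the interaction and 1 anchor in the D2 background. Without chromosome 11 there was 1 loop for the average and 3 anchors for the interaction. Replicate numbers did not pair the samples (correlations of deviations from -0.045 to 0.006), and with the replicate block there were 3 anchors for the average, 1 loop in the B6 background and 2 anchors for the interaction. For the region's share, the exact permutation p was 0.444 with the replicate block and 0.389 within backgrounds, both added after seeing the data, against 0.371. Leaving out 1 library gave 0 to 3 loops and 2 to 10 anchors for the average, 0 to 3 loops and 1 to 12 anchors in the B6 background, 0 to 3 loops and 0 to 3 anchors in the D2 background, and 0 loops and 0 to 8 anchors for the interaction. It gave 20 to 28 loops and 17 to 19 anchors higher and 24 to 26 loops and 17 to 22 anchors lower in the D2 background. The difference in the region's share ran from -0.0284 to -0.00772 points for the interval and from -0.0102 to 0.0163 for the background. Long loops of the D2 background alone numbered 18 with at least 5 counts, 3 with at least 20, 12 with up to 2 counts allowed in the other background and 4 to 8 with 1 library left out. Those of the B6 background alone numbered 8, 3 with up to 2 counts allowed and 0 to 2. The cause of these shifts was not tested. Of the 1774 loops, 679 hold 1 count and 169 reached the minimum for testing.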
